A study of Mus musculus with 6 samples.

Results

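Kainate receptors are ionotropic glutamate receptors assembled from the products of 5 genes, Grik1 to Grik5 (GluK1 to GluK5), and all 5 are described here across the cell classes of the mouse septal area. The members were taken by gene symbol, 5 of 32285 genes in the count tables, under the identifiers ENSMUSG00000022935 (Grik1), ENSMUSG00000056073 (Grik2), ENSMUSG00000001985 (Grik3), ENSMUSG00000032017 (Grik4) and ENSMUSG00000003378 (Grik5). The series holds 6 droplet libraries of single nuclei, replicates 1 to 6 of 1 group: wild-type mice, no treatment named. The labels used here name no strain, age, sex or number of animals, so any p-value rests on the spread between these libraries, which may be technical. Of 55537 barcodes, 54623 with 500 or more detected genes were kept, and 48462 of these fell into a class by sums of marker genes, none of which is a Grik gene. Totals ran from 70183544 to 95175260 UMIs (unique molecular identifiers, 1 per captured RNA molecule) per library.

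Each kainate receptor is a tetramer. GluK1, GluK2 and GluK3 can form channels alone or with one another, while GluK4 and GluK5 bind glutamate with high affinity but need GluK1, GluK2 or GluK3 to form a working channel. The auxiliary proteins Neto1 and Neto2 join the receptor and slow its gating. In forebrain, kainate receptors sit on both sides of synapses and tune the release of GABA and glutamate. The septum is built mainly of GABAergic neurons, with lateral septum projection neurons, medial septum neurons and small cholinergic and glutamatergic populations.

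Classes were gated nucleus by nucleus. Lateral septum-like nuclei (10619) passed on Trpc4, Dgkg, Homer2, Ptpn3 and Cpne7, and medial septum-like nuclei (681) on Lhx6, Lhx8, Nkx2-1, Pvalb, Casz1 and Robo3. Striatal-like nuclei (623), other GABAergic-like nuclei (6521) and neurons with Slc17a6 or Slc17a7 (765) made up the other neuron classes with a named transmitter, beside neurons with Chat and Slc5a7 (77). A further 4545 neurons were not resolved by transmitter. They count among the gated nuclei and enter only the sum of all neurons (23831 nuclei). The Chat/Slc5a7 neurons numbered 9 to 16 per sample, and replicate 6, with 9, was left out of their sums, which need 10 nuclei. The gate of these neurons used the cholinergic markers Chat, Slc5a7 and Slc18a3, and nuclei that passed it were kept out of the GABAergic-like classes. By that choice, these markers summed to 962 CPM in Chat/Slc5a7 neurons, against 3.73 to 8.57 in the GABAergic-like classes. The medial septum markers summed to 259 CPM in Chat/Slc5a7 neurons with Pvalb at 0, and the GABAergic markers to 210 CPM against 420 in all neurons. Non-neuronal classes were astrocyte-like (10072), ependymal-like (2766), oligodendrocyte precursor-like (2401), committed precursor-like (371), oligodendrocyte-like (6875), microglia-like (892), endothelial-like (653) and pericyte or smooth muscle-like (382). Median UMIs per nucleus were 15353 in lateral septum-like, 3877 in astrocyte-like and 2735 in microglia-like nuclei. Neuroblast-like nuclei (115, 10 to 30 per sample) and dividing progenitor-like nuclei (79, 4 to 19 per sample) were few. Replicate 3, with 4, was left out of the dividing progenitor-like sums. Nuclei that passed gates of unrelated classes (5460) went into no class.

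Levels are given as CPM, UMIs of the gene per 1000000 UMIs of the class in a sample, as mean ± SD over samples. Long genes give more UMIs from nuclear RNA, so each gene is compared across classes and not with another gene.

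Grik1, the gene of GluK1, was high in most GABAergic classes and in oligodendrocyte precursor-like nuclei, and low in microglia, vascular and ependymal-like nuclei. In lateral septum-like nuclei the 6 samples had 445, 466, 480, 453, 467 and 487 CPM (466 ± 15.7, n = 6). Oligodendrocyte precursor-like nuclei had 529 ± 23.4 CPM and other GABAergic-like nuclei 537 ± 67.5, the highest mean of the 16 classes. Medial septum-like nuclei averaged almost the same as lateral septum-like nuclei, 475 CPM, but spread far more (SD 148). Replicates 1, 3 and 5 had 693, 548 and 563 CPM there and replicates 2, 4 and 6 had 326, 356 and 363. The striatal-like nuclei, at 165 ± 63.8 CPM, split the same way, with 237, 242 and 181 CPM in replicates 1, 3 and 5 against 102, 123 and 107 in replicates 2, 4 and 6. The libraries did not split so in lateral septum-like nuclei. Replicates 1, 3 and 5 held 84, 81 and 103 medial septum-like nuclei and replicates 2, 4 and 6 held 138, 168 and 107; the part of class make-up in this spread was not tested. Slc17a6/7 neurons had 255 ± 61.4 CPM, committed precursor-like nuclei 269 ± 17.3 and oligodendrocyte-like nuclei 238 ± 24.01. Ependymal-like nuclei had 59.5 ± 11.8 CPM, the lowest mean, so the range over classes was 9.03-fold.

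Grik2, the gene of GluK2, was found in every class, and its order differed from that of Grik1. Medial septum-like nuclei led with 3644, 3831, 4001, 3430, 3858 and 3185 CPM in the 6 samples (3658 ± 304), followed by striatal-like nuclei at 2746 ± 391. No medial septum-like sample overlapped a lateral septum-like one, which had 1246 to 1426 CPM (1357 ± 60.7). Dividing progenitor-like nuclei had 2333 ± 312 CPM (n = 5), other GABAergic-like nuclei 2282 ± 104 and Slc17a6/7 neurons 2219 ± 232. In the oligodendrocyte lineage it was 1368 ± 45.8 CPM in precursor-like, 2029 ± 337 in committed precursor-like and 1712 ± 100 in oligodendrocyte-like nuclei. Astrocyte-like nuclei had 887 ± 27.5 CPM and ependymal-like nuclei 802 ± 47.0. Microglia-like, endothelial-like and pericyte or smooth muscle-like nuclei were lowest, with means of 408, 445 and 403 CPM.

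Grik3, the gene of GluK3, a subunit of low glutamate affinity, was high in GABAergic-like and oligodendrocyte precursor-like nuclei and low in most glia. All 4 GABAergic-like classes, neuroblast-like nuclei and oligodendrocyte precursor-like nuclei had means of 159 to 251 CPM. The neuroblast-like mean rested on 102 UMIs, with samples from 160 to 384 CPM. The 6 lateral septum-like samples had 217, 199, 216, 215, 196 and 231 CPM (212 ± 13.02). Slc17a6/7 neurons had 49.4 ± 13.9 CPM, with 30.8 to 62.9 in the samples, below every GABAergic-like sample. Astrocyte-like nuclei had 13.6 ± 3.44 CPM, ependymal-like nuclei 14.4 ± 5.22 and oligodendrocyte-like nuclei 18.9 ± 4.22. These means were close to those of the microglia-like (18.3 CPM), pericyte or smooth muscle-like (16.9) and endothelial-like classes (21.6).

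Grik4, the gene of GluK4, had its highest levels in a different set of cells. Oligodendrocyte precursor-like nuclei had 385, 345, 398, 386, 371 and 385 CPM (378 ± 18.4) and Chat/Slc5a7 neurons 438, 228, 392, 398 and 358 CPM in replicates 1 to 5 (363 ± 80.8, n = 5, 475 UMIs in all). Medial septum-like nuclei (228 ± 17.7 CPM) and ependymal-like nuclei (225 ± 18.0 CPM) came next. Lateral septum-like nuclei had 96.8 ± 6.90 CPM, Slc17a6/7 neurons 86.6 ± 30.5 and astrocyte-like nuclei 64.1 ± 4.92. The dividing progenitor-like class rested on 4 UMIs of Grik4 in all, and 3 of its 5 samples had none.

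Grik5, the gene of GluK5, had the smallest fold range over classes of the 5 members, 6.82. In all 6 neuron classes, and in neuroblast-like (38 UMIs in all), astrocyte-like and oligodendrocyte precursor-like nuclei, its mean lay between 75.8 and 109 CPM. Lateral septum-like nuclei had 92.2 to 99.3 CPM over samples (96.0 ± 3.18), astrocyte-like nuclei 84.5 to 103 (91.5 ± 6.73) and oligodendrocyte precursor-like nuclei 83.1 to 99.8 (91.7 ± 5.51), so these 3 classes overlapped. Ependymal-like nuclei had 41.3 ± 3.50 CPM and oligodendrocyte-like nuclei 35.7 ± 1.87, with no overlap between either class and the 3 above. Microglia-like nuclei had 16.04 ± 6.18 CPM. Pericyte or smooth muscle-like nuclei had a mean of 54.2 CPM from 51 UMIs, with samples from 10.8 to 109.

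**Figure D1:**
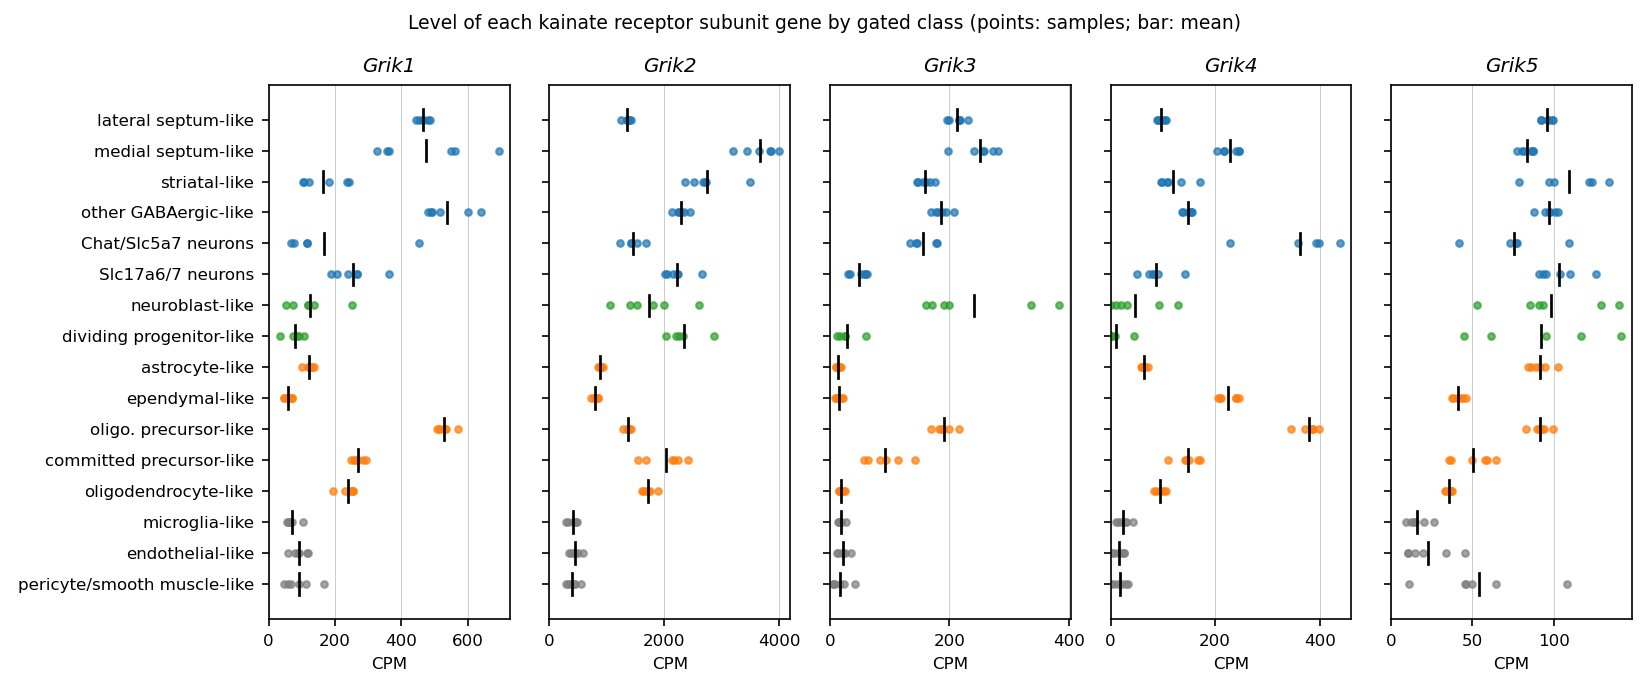
Level of each Grik gene in CPM (x axis, linear, a separate scale for each gene) in 16 gated classes (y axis); points are samples and black bars are means. Grik3 is near 0 in 6 classes, from astrocyte-like to vascular, Grik4 is highest in oligodendrocyte precursor-like nuclei and Chat/Slc5a7 neurons, and Grik5 lies close to 100 CPM in most neuron classes.

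The order of levels over the 16 classes was checked between neighbours with an exact two-sided sign-flip permutation test of the difference in log2(CPM + 1) within samples. Of 75 neighbouring pairs over the 5 genes, 0 passed an adjusted p of 0.05, and 9 had the smallest unadjusted p that 6 pairs allow, 0.031 (smallest adjusted p 0.26; 5 pairs cannot go below 0.062). At least 47 pairs at that p would be needed for any to pass, so this design could not separate single neighbours. The 9 pairs, higher class first, included lateral septum-like and committed precursor-like nuclei for Grik1 (a log2 difference of 0.80 ± 0.10 SD), medial septum-like and striatal-like for Grik2 (0.42 ± 0.17), committed precursor-like and Slc17a6/7 neurons for Grik3 (0.87 ± 0.41), ependymal-like and other GABAergic-like for Grik4 (0.60 ± 0.09) and ependymal-like and oligodendrocyte-like for Grik5 (0.20 ± 0.08), each higher in 6 of 6 samples.

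Differences between chosen classes were tested with edgeR's quasi-likelihood test on UMIs summed per sample and class, with the library as a block, over all genes that passed a filter on low counts. P-values were adjusted over all those genes by the Benjamini-Hochberg method, and a gene was called at an adjusted p under 0.05. All 5 members passed the filter in all 8 comparisons. Log2 differences are given ± SE. The test draws part of each gene's spread from other genes, so its SE and p-value can understate the spread of a single gene.

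As a sum of 4 classes, GABAergic-like neurons had more Grik1, Grik3 and Grik4 and less Grik2 than Slc17a6/7 neurons. The largest gap was that of Grik3, 204 ± 11.1 CPM against 49.4 ± 13.9, a log2 difference of 2.05 ± 0.12 (adjusted p 3.0e-09, higher in 6 of 6 samples). Grik1 was higher by 0.93 ± 0.10 on the log2 scale (adjusted p 3.3e-06, 6 of 6 samples) and Grik4 by 0.47 ± 0.11 (adjusted p 0.0058, 5 of 6 samples, ranges overlapping). Grik2 went the other way, 1759 against 2219 CPM, a log2 difference of -0.35 ± 0.06 (adjusted p 1.8e-04, 6 of 6 samples). Within that sum, only lateral septum-like nuclei had a lower Grik2 mean (1357 CPM). Medial septum-like (3658 CPM), striatal-like (2746) and other GABAergic-like nuclei (2282) had higher means. Grik1 was lower in striatal-like nuclei (165 CPM) than in Slc17a6/7 neurons (255). Slc17a6/7 neurons without a UMI of Ebf2, Ebf3 and Corin had 481 CPM of Grik1 and 194 of Grik4. Those with these genes had 152 and 38.7, and the GABAergic-like sum 479 and 118. Grik5 did not pass (-0.11 ± 0.07, adjusted p 0.27). In all, 4 of 5 members were called, against 29.2% of 17509 genes tested; 3 were higher in GABAergic-like neurons, against 16.7% of genes, and 1 lower, against 12.4%. With nuclei thinned to 2000 UMIs the Grik4 difference was 0.85. Neto1, an auxiliary subunit, was higher in GABAergic-like neurons by 1.85 ± 0.19 (208 against 63.3 CPM, adjusted p 2.1e-06), while Neto2 did not pass (-0.10 ± 0.07). Of the 11 genes on a list of kainate receptor partners (auxiliary, scaffold, trafficking and editing proteins), 9 were tested, with 4 higher and 1 lower. Besides Neto1, the largest were Grip1, a PDZ scaffold protein (1.14 ± 0.06), Dlg4, the postsynaptic scaffold PSD-95 (0.62 ± 0.07) and, lower and at only 1.38 against 5.01 CPM, the secreted synaptic protein C1ql3 (-1.80 ± 0.41). The partner list's median was 0.12 against 0.03 over all genes.

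Lateral septum-like and medial septum-like nuclei differed most in Grik2 and Grik4. Both were lower in the lateral septum-like class, Grik2 by a log2 difference of -1.39 ± 0.05 (adjusted p 1.0e-17) and Grik4 by -1.20 ± 0.05 (adjusted p 4.0e-16), each in 6 of 6 samples with no overlap. Grik3 was also lower (-0.21 ± 0.06, adjusted p 0.0039, 5 of 6 samples) and Grik5 higher (0.23 ± 0.05, adjusted p 0.0012, 6 of 6 samples). Grik1 did not pass (0.06 ± 0.10, adjusted p 0.70), and its sign turned without replicate 2, 4 or 6. With no filter on low counts it passed (0.12, adjusted p 0.041). Thus 4 of 5 members were called, against 38.1% of 16118 genes, with 1 higher in the lateral septum-like class (19.1% of genes) and 3 lower (18.9%). With each marker gate set at double its level, Grik3 (-0.09, adjusted p 0.54) and Grik5 (0.16, adjusted p 0.36) no longer passed. With nuclei thinned to 2000 UMIs Grik5 differed by 0.48 (adjusted p 0.011). Grik3 also missed the threshold with thinned nuclei (-0.16, adjusted p 0.23) and without the 5% of nuclei with the most UMIs (-0.11, adjusted p 0.16). Both auxiliary subunit genes were lower in lateral septum-like nuclei, Neto2 by -1.12 ± 0.06 (72.2 against 160 CPM, adjusted p 3.1e-14) and Neto1 by -0.40 ± 0.05 (adjusted p 1.3e-07). The other partners that passed were Dlg4 (0.56 ± 0.07) and the scaffold kinase Cask (0.20 ± 0.05), so 2 of 9 tested were higher and 2 lower. The list's median was -0.05, against 0.004 over all genes.

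Against striatal-like nuclei, lateral septum-like nuclei had more Grik1 and Grik3 and less Grik2. Grik1 differed by 1.55 ± 0.12 on the log2 scale (adjusted p 3.7e-10) and Grik3 by 0.39 ± 0.06 (adjusted p 1.8e-05), each in 6 of 6 samples without overlap. Grik2 differed by -1.03 ± 0.06 (adjusted p 3.0e-12, 6 of 6 samples). Grik4 passed at -0.28 ± 0.09 (adjusted p 0.019, 5 of 6 samples) but not without replicate 3 (-0.18, adjusted p 0.085) or replicate 5 (-0.20, adjusted p 0.097), nor with gates at double the level (-0.06, adjusted p 0.83) or thinned nuclei (-0.28, adjusted p 0.15). Grik5 missed the threshold (-0.21 ± 0.08, adjusted p 0.053) and fell below it without replicate 2, 3 or 5 (adjusted p 0.048, 0.046 and 0.0086) and in 4 other settings. The 4 calls stood against 32.6% of 16126 genes, with 2 higher in lateral septum-like nuclei (17.5% of genes) and 2 lower (15.0%). Neto1 was the partner with the widest gap, 185 ± 11.2 CPM in lateral septum-like and 570 ± 58.7 in striatal-like nuclei (-1.64 ± 0.06, adjusted p 1.6e-16). Neto2 differed in the same direction (-1.51 ± 0.06, adjusted p 1.4e-15), while Grip1 (1.27 ± 0.06) and Cask (0.33 ± 0.06) were higher in lateral septum-like nuclei. Of 9 partners tested, 2 were higher and 2 lower, with a median of 0.01 against 0.03 over all genes.

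Chat/Slc5a7 neurons had more Grik4 and less Grik1 than GABAergic-like neurons over 5 samples. Grik4 stood at 363 ± 80.8 against 116 ± 6.48 CPM (1.48 ± 0.13, adjusted p 1.9e-28, 5 of 5 samples, no overlap), and at a log2 difference of 0.9994 with thinned nuclei (adjusted p 0.0047). Grik1 had 76.4, 67.8, 452, 115 and 117 CPM in replicates 1 to 5, so replicate 3 stood far above the other 4 and inside the GABAergic-like range. The log2 difference of Grik1 was -1.88 ± 0.14 (adjusted p 1.3e-36, lower in 5 of 5 samples) and -2.52 ± 0.18 without replicate 3. The SE of 0.14 and its p do not reflect the wide spread of Grik1 over these samples (166 ± 162 CPM). Other fits gave a larger SE. For Grik1, DESeq2 gave -1.95 ± 0.34 (adjusted p 1.5e-07) and edgeR without the library block -1.64 ± 0.24 (adjusted p 1.7e-05). Grik2 (-0.44 ± 0.11, adjusted p 8.4e-04, 5 of 5 samples) and Grik3 (-0.54 ± 0.14, adjusted p 0.0018, 5 of 5 samples) were lower too, and neither passed with gates at 0.5 of their level (Grik2 -0.24, adjusted p 0.32; Grik3 -0.44, adjusted p 0.076). With thinned nuclei Grik2 was -0.68 (adjusted p 1.5e-04). Grik3 also missed the threshold with thinned nuclei (-0.28, adjusted p 0.60). The GABAergic-like sum joins unlike classes. The Grik2 mean of Chat/Slc5a7 neurons (1455 CPM) was above that of lateral septum-like nuclei (1357). It was below those of medial septum-like (3658 CPM), striatal-like (2746) and other GABAergic-like nuclei (2282). Against striatal-like nuclei alone, the means were close for Grik1 (166 and 165 CPM) and Grik3 (156 and 159). The Grik1 mean of Chat/Slc5a7 neurons includes replicate 3 at 452 CPM. Within samples Grik1 was higher in Chat/Slc5a7 than in striatal-like nuclei in only 1 of 5 (mean log2 difference -0.41 ± 0.92 SD). Grik5 passed narrowly (-0.51 ± 0.17, adjusted p 0.023, 4 of 5 samples). It missed the threshold with DESeq2 (-0.40, adjusted p 0.27) and with RLE scaling (-0.39, adjusted p 0.12). Without replicate 1, 2 or 4 it missed with nearly the same difference (-0.49, -0.50 and -0.49, adjusted p 0.080, 0.054 and 0.065). It was smaller without replicate 3 (-0.34, adjusted p 0.28) and with gates at 0.5 of their level (-0.22, adjusted p 0.56), and larger with thinned nuclei (-0.98, adjusted p 0.18). Without replicate 5 it passed at -0.72 (adjusted p 0.0044). The 5 calls stood against 17.6% of 16850 genes, with 1 higher (6.11% of genes) and 4 lower (11.5%). The median log2 difference of all genes was -0.19 with TMM scaling and -0.07 with RLE scaling, a shift of 0.12. Neto1 was higher in Chat/Slc5a7 neurons (355 ± 21.1 against 208 CPM, 0.61 ± 0.13, adjusted p 2.0e-05) and Neto2 lower (-0.79 ± 0.19, adjusted p 2.8e-04). Of 9 partners tested, 1 was higher and 4 lower, among them Dlg4 (-0.97 ± 0.19) and Adarb1, the enzyme ADAR2 that edits glutamate receptor transcripts (-0.55 ± 0.16). The partner median was -0.53.

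**Figure D2:**
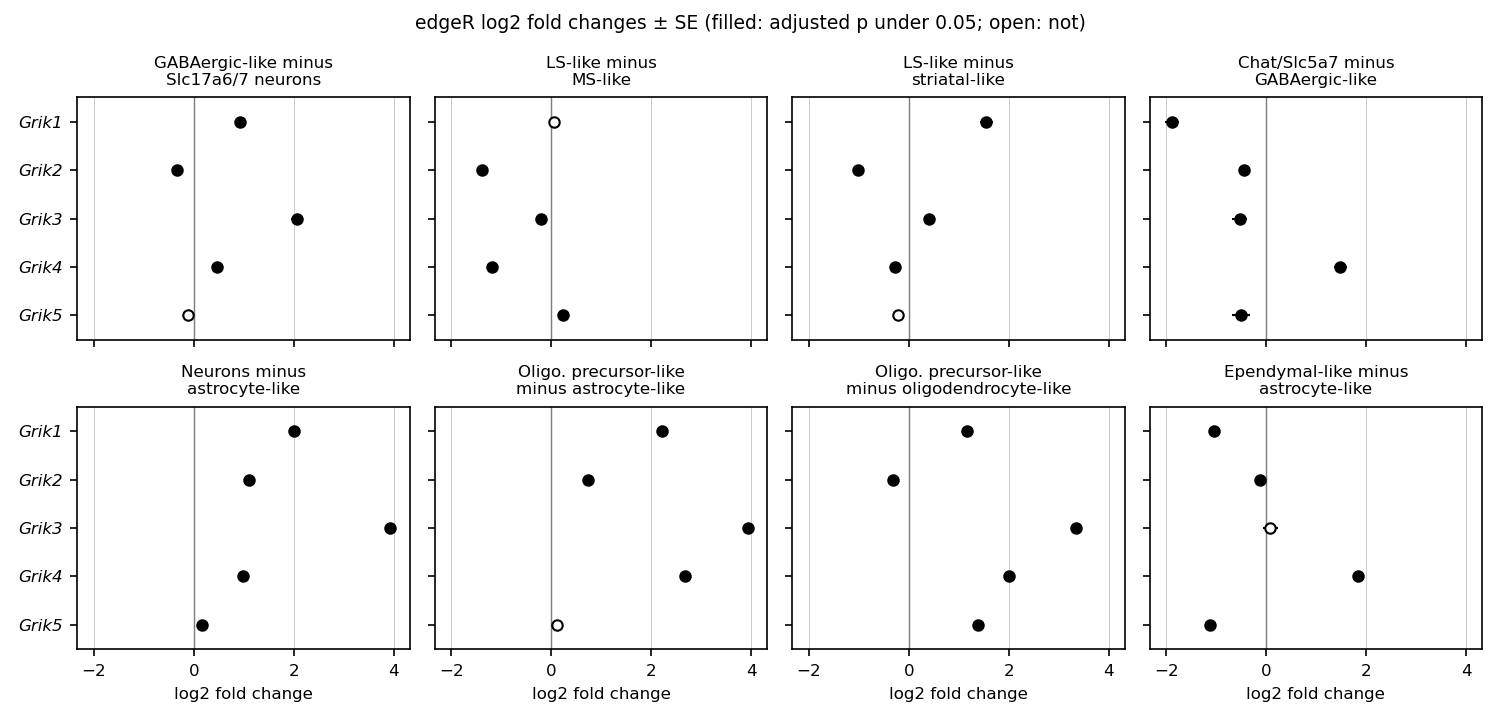
Log2 fold changes from edgeR (x axis) with SE as bars, for the 5 Grik genes (y axis) in 8 comparisons; filled points passed an adjusted p of 0.05 and open points did not. Grik2 and Grik4 lie left of 0 in the comparison of lateral septum-like (LS-like) with medial septum-like (MS-like) nuclei, and Grik3 is the rightmost gene in the comparisons of neurons and of oligodendrocyte precursor-like nuclei with astrocyte-like nuclei (3.92 and 3.94).

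All 5 members were higher in neurons as a whole than in astrocyte-like nuclei. The differences ran from 3.92 ± 0.08 on the log2 scale for Grik3 (193 ± 9.80 against 13.6 ± 3.44 CPM, adjusted p 3.6e-18) to 0.15 ± 0.04 for Grik5 (96.7 against 91.5 CPM, adjusted p 0.0011, higher in 5 of 6 samples). Grik1 differed by 1.995 ± 0.06 (adjusted p 9.3e-16), Grik2 by 1.10 ± 0.04 (adjusted p 2.3e-14) and Grik4 by 0.98 ± 0.04 (adjusted p 6.3e-13), each in 6 of 6 samples without overlap. Across all genes, 81.0% of 18485 were called, 42.0% higher in neurons and 39.0% higher in astrocyte-like nuclei. Neto1 (2.91 ± 0.06, adjusted p 3.8e-18) and Neto2 (1.87 ± 0.05, adjusted p 5.9e-16) were higher in neurons as well. So were Adarb1 (2.64 ± 0.05) and Adar (1.35 ± 0.04), both RNA-editing enzymes, and C1ql3 was lower (-0.53 ± 0.17, at 1.57 against 2.38 CPM). Of 9 partners tested, 7 were higher in neurons and 1 lower, with a median of 1.32 against 0.05 over all genes.

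Oligodendrocyte precursor-like nuclei had more Grik1, Grik2, Grik3 and Grik4 than astrocyte-like nuclei, and the gap was smallest for Grik2. Grik3 was higher by 3.94 ± 0.08 on the log2 scale (adjusted p 1.8e-30), Grik4 by 2.68 ± 0.05 (adjusted p 7.9e-32), Grik1 by 2.22 ± 0.05 (adjusted p 2.9e-29) and Grik2 by 0.74 ± 0.03 (adjusted p 1.2e-20), each in 6 of 6 samples without overlap. Grik5 did not pass (0.12 ± 0.06, adjusted p 0.062), but did without replicate 2 (adjusted p 0.038), replicate 4 (0.027) or the 5% of nuclei with the most UMIs (0.023). The 4 calls, all higher in the precursor-like class, stood against 66.3% of 13840 genes called in either direction, 32.2% in that direction and 34.1% in the other. Neto1 had 380 ± 23.2 against 27.7 ± 5.45 CPM (3.89 ± 0.07, adjusted p 4.0e-32), the widest gap of any partner in the 8 comparisons, and Neto2 was higher by 1.72 ± 0.07 (adjusted p 2.2e-21). C1ql3 (2.71 ± 0.17) and Cask (1.97 ± 0.04) led the other partners, of which 7 of 9 tested were higher, Neto1 and Neto2 included. The partner median was 1.40 against -0.01 over all genes.

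Along the oligodendrocyte lineage, Grik1, Grik3, Grik4 and Grik5 were higher in precursor-like than in oligodendrocyte-like nuclei and Grik2 was lower. The log2 differences were 3.34 ± 0.09 for Grik3 (adjusted p 4.6e-24), 2.01 ± 0.05 for Grik4 (adjusted p 3.5e-25), 1.38 ± 0.07 for Grik5 (adjusted p 1.5e-17) and 1.17 ± 0.05 for Grik1 (adjusted p 3.6e-19). Grik2 differed by -0.31 ± 0.04 (adjusted p 2.8e-08, 6 of 6 samples, no overlap). For Grik1 and Grik2 the gap differed between the oligodendrocyte-like subsets described below. The Opalin and Il33 subset had means of 135 CPM of Grik1 and 2040 of Grik2, and the Anln and Hapln2 subset 470 and 1319. Precursor-like nuclei had 529 and 1368, and their Grik1 samples (506 to 572 CPM) overlapped those of the Anln and Hapln2 subset (395 to 563). The committed precursor-like class had means between those of the other 2 classes for Grik1, Grik3, Grik4 and Grik5, while its Grik2 mean of 2029 CPM was above both. Its Grik2 samples ran from 1550 to 2406 CPM, across the oligodendrocyte-like range of 1607 to 1887. They were below the oligodendrocyte-like ones in replicates 3 (1550 against 1607) and 5 (1682 against 1887), and the difference was not tested. All 5 members were called, against 68.4% of 12639 genes, with 4 higher in precursor-like nuclei (35.0% of genes) and 1 lower (33.4%). Neto1 (3.64 ± 0.08, adjusted p 2.0e-25) and Neto2 (2.04 ± 0.08, adjusted p 4.3e-20) were higher in precursor-like nuclei, as were Grip1 (2.07 ± 0.07) and Cask (2.05 ± 0.05). Of 9 partners tested, 8 were higher and Pick1 did not pass (-0.07 ± 0.09), with a median of 1.84 against -0.01 over all genes.

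Ependymal-like nuclei, which line the ventricle, had more Grik4 than astrocyte-like nuclei and less Grik1, Grik2 and Grik5. Ependymal-like samples had 240, 206, 245, 210, 212 and 239 CPM of Grik4 and astrocyte-like samples 59.1 to 72.5, a log2 difference of 1.83 ± 0.06 (adjusted p 1.3e-40). Grik1 (-1.05 ± 0.08, adjusted p 3.5e-19) and Grik5 (-1.13 ± 0.08, adjusted p 2.2e-21) were lower in 6 of 6 samples without overlap. For Grik1 this did not hold in each astrocyte-like subset described below. Ependymal-like samples (45.9 to 71.0 CPM) overlapped the subset with Slc6a11, Itih3 and Lrig1 (51.7 to 78.0). They also overlapped that with Gfap, Adamts18 and Veph1 (58.5 to 88.2), but not that with Gldc, Grin2c and Rorb (131 to 179). Grik2 was slightly lower (-0.13 ± 0.04, adjusted p 0.0016, 6 of 6 samples, ranges overlapping; -0.25 with no filter on low counts) and Grik3 did not pass (0.08 ± 0.15, adjusted p 0.65). The 4 calls stood against 70.6% of 14238 genes, with 1 higher (36.2% of genes) and 3 lower (34.4%). Neto1 did not pass (0.20 ± 0.10, adjusted p 0.088) and Neto2 was lower (-0.38 ± 0.12, adjusted p 0.0043). Adarb1 was higher (81.7 against 19.4 CPM, 2.09 ± 0.09), and Cask (-0.51 ± 0.05) and Pick1, a PDZ protein of receptor trafficking (-0.31 ± 0.12), were lower, so 1 of 8 partners tested was higher and 5 lower, with a median of -0.27 against -0.01 over all genes.

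The other ionotropic glutamate receptor genes, a list of 13 AMPA, NMDA and delta subunits, were counted in the same 8 comparisons, with 12 of them tested in each except neurons against astrocyte-like nuclei, where 13 were. The shares of all genes called are those given above. In GABAergic-like against Slc17a6/7 neurons 8 were higher and 1 lower (median 0.54, beside 0.47 for the kainate genes). Lateral septum-like nuclei had 5 higher and 2 lower than medial septum-like nuclei (median -0.02, kainate -0.21) and 6 higher and 2 lower than striatal-like nuclei (median 0.13, kainate -0.21). Chat/Slc5a7 neurons had 3 higher and 6 lower than GABAergic-like neurons (median -0.42, kainate -0.51). In neurons against astrocyte-like nuclei 10 were higher and 2 lower (median 1.56, kainate 1.10). Oligodendrocyte precursor-like nuclei had 7 higher and 5 lower than astrocyte-like nuclei (median 1.05, kainate 2.22) and 8 higher and 3 lower than oligodendrocyte-like nuclei (median 1.18, kainate 1.38). Ependymal-like nuclei had 3 higher and 8 lower than astrocyte-like nuclei (median -1.52, kainate -0.13). The differences between the lists were not tested.

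Low levels in non-neuronal classes were set beside the neuron markers Rbfox3, Syt1, Snap25 and Snhg11, whose sum in those classes ran from 7.42 to 15.5% of its neuron level and which were all detected there. These markers are also the neuron gate. Neurons were chosen for high values of them, and nuclei that passed the gate were kept out of these classes. The marker percentages thus depend on the gate, and a level above or below them cannot show whether it came from neurons. Grik3 in astrocyte-like, ependymal-like and oligodendrocyte-like nuclei stood at 7.01, 7.46 and 9.79% of its neuron level, below the 10.5, 11.6 and 11.1% of the neuron markers. Grik1 in ependymal-like nuclei, at 12.8%, was close to the 11.6% of the markers. Other values were well above them: in astrocyte-like nuclei Grik5 stood at 94.5%, Grik4 at 53.2%, Grik2 at 48.8% and Grik1 at 26.4%, and in ependymal-like nuclei Grik4 stood at 187%. In oligodendrocyte precursor-like nuclei Grik4 stood at 314%, Grik1 at 113% and Grik3 at 98.4%, with the markers at 11.3%. In microglia-like nuclei the 5 genes stood at 9.44 to 22.4% with the markers at 13.9%. The part of free RNA or of nuclei captured together in these levels was not tested.

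**Figure D3:**
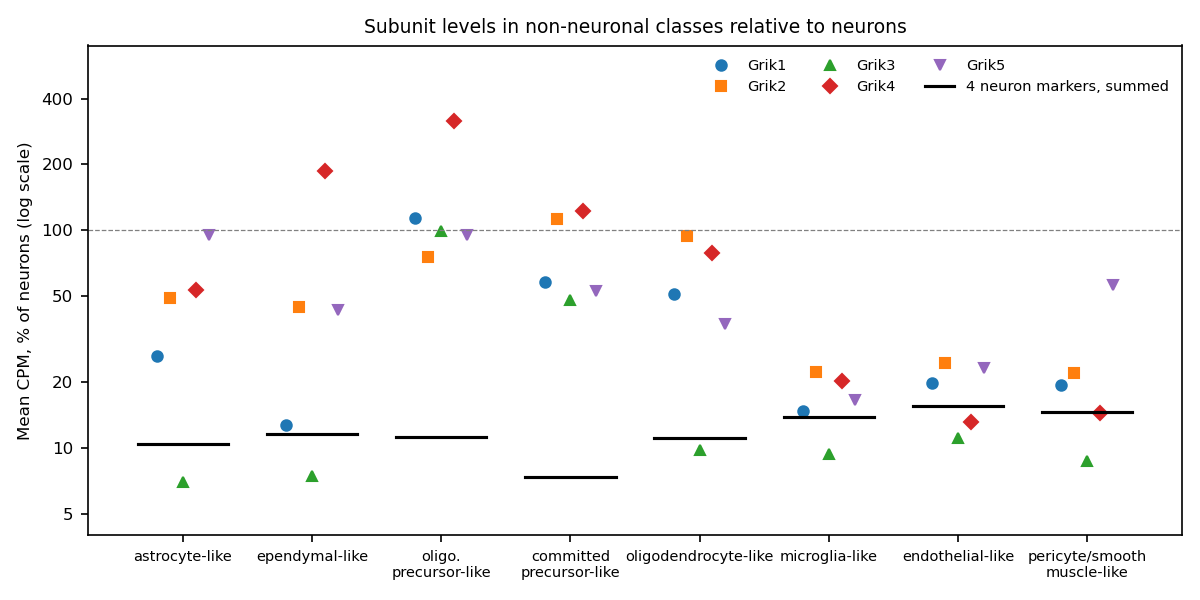
Mean CPM of each Grik gene in 8 non-neuronal classes as a percentage of its mean in all neurons (y axis, log scale, with a dashed line at 100%). Black bars mark the summed neuron markers, which are also the neuron gate. Grik3 lies below the bar in 6 classes, while Grik4 lies above 100% in ependymal-like (187%), oligodendrocyte precursor-like (314%) and committed precursor-like (122%) nuclei.

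Detection per nucleus showed how evenly each gene was spread within a class. With every nucleus thinned to 2000 UMIs, Grik2 had a UMI in 97.2 ± 2.14% of medial septum-like, 80.3 ± 1.96% of lateral septum-like and 76.9 ± 2.63% of astrocyte-like nuclei, and in 50.5 ± 8.43% of microglia-like nuclei. Grik4 had one in 51.6 ± 1.64% of oligodendrocyte precursor-like, 33.9 ± 1.78% of ependymal-like and 2.80 ± 0.65% of microglia-like nuclei. Grik1 had one in 56.3 ± 3.74% of oligodendrocyte precursor-like nuclei, and in 36.3 ± 0.91% of lateral septum-like and 13.8 ± 5.82% of microglia-like nuclei. Before thinning, which left out 3 lateral septum-like, 15 oligodendrocyte precursor-like, 752 astrocyte-like and 214 microglia-like nuclei, Grik1 was detected in 63.0 ± 1.39% of lateral septum-like, 81.9 ± 3.39% of oligodendrocyte precursor-like and 17.0% of microglia-like nuclei. For Grik4, 84.4 ± 3.96% of oligodendrocyte precursor-like, 49.2 ± 5.18% of ependymal-like and 5.78 ± 1.76% of microglia-like nuclei had a UMI before thinning.

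The share of nuclei without a UMI was compared with the Poisson share that would hold if every nucleus of the class had the class mean at its own depth. For Grik1, 37.0% of lateral septum-like nuclei had no UMI against 0.99% at the class mean. The same gap appeared in medial septum-like nuclei (32.9 against 1.74%) and Slc17a6/7 neurons (56.3 against 10.2%), and a smaller one in oligodendrocyte precursor-like nuclei (18.1 against 5.74%). Grik4 was also uneven in lateral septum-like nuclei (50.3 against 25.5%), and Grik3 in striatal-like nuclei (51.9 against 19.1%). Grik5 fell near its Poisson share in lateral septum-like (25.9 against 25.6%), astrocyte-like (69.7 against 69.1%) and oligodendrocyte precursor-like nuclei (55.2 against 54.8%).

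**Figure D4:**
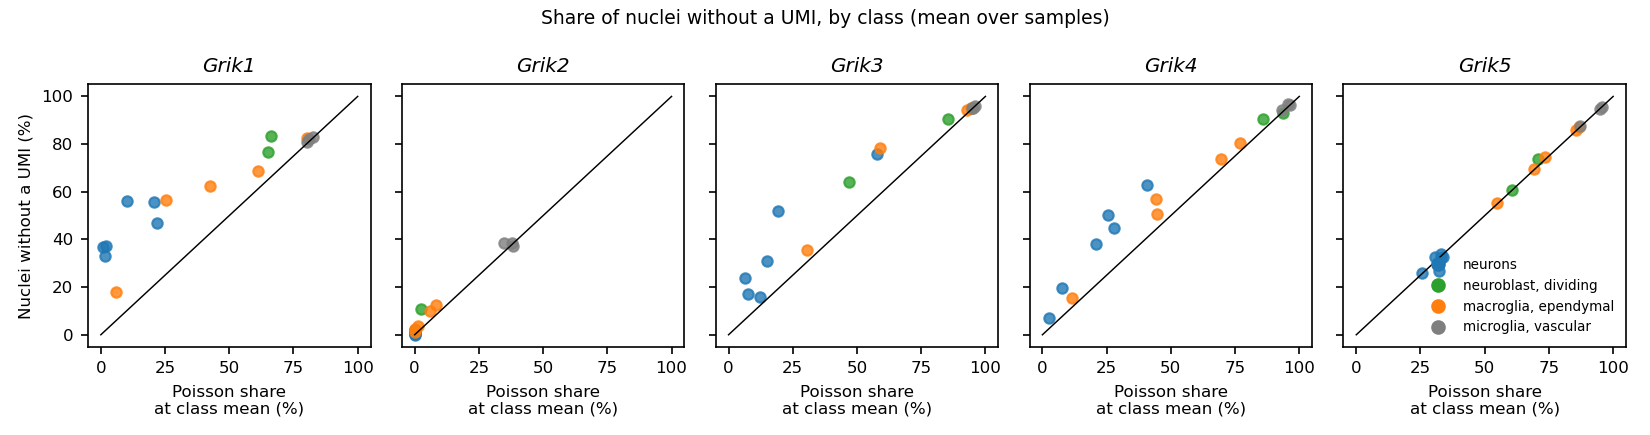
Share of nuclei without a UMI of each Grik gene (y axis, percent) against the Poisson share at the class mean (x axis, percent); points are class means over samples, coloured by cell group, and the line marks equal values. Grik1 in neurons lies far above the line (37.0 against 0.99% in lateral septum-like nuclei) and Grik5 lies on it.

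Nuclei with the high-affinity subunits were checked for a partner, since GluK4 and GluK5 need GluK1, GluK2 or GluK3. All 2019 oligodendrocyte precursor-like nuclei with a Grik4 UMI also had a UMI of Grik1, Grik2 or Grik3, as did 90.9 ± 2.21% of the ependymal-like ones. Thinned to 2000 UMIs, these shares were 96.6 ± 1.56% and 77.3 ± 4.96%, against 96.5 ± 0.58% and 76.7 ± 2.70% of all nuclei of each class. For Grik5 the thinned share was 92.6 ± 0.89% in lateral septum-like nuclei (91.3 ± 0.65% of all) and 83.6 ± 2.46% in astrocyte-like nuclei (82.3 ± 2.11% of all). Each share for nuclei with Grik4 or Grik5 was thus close to that of all nuclei of its class, and the differences were not tested.

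Within 4 classes, nuclei were also split by marker sets that were chosen after seeing the data, and the values are given as a description with no test. Except in the set without Ebf2, Ebf3 and Corin, a nucleus needed 3 or more UMIs of the set's markers. Where a class had several sets, its share of the set's UMIs also had to be 2 times the next. Other nuclei entered no subset. Lateral septum-like subsets held 551 to 1901 of 10619 nuclei each, astrocyte-like ones 426 to 2708 of 10072 and oligodendrocyte-like ones 2062 and 1275 of 6875. In lateral septum-like nuclei Grik1 ran from 210 ± 93.3 CPM in the Pax6 and Eya4 subset and 233 ± 13.2 in the Ano2 and Ntf3 subset to 837 ± 89.4 in the subset with Calcr, Esr1 and Prlr, the calcitonin, oestrogen and prolactin receptor genes. The Calcr, Esr1 and Prlr subset had 836, 876, 915, 664, 847 and 887 CPM in the 6 samples, above every sample of the Ano2 and Ntf3 subset (220 to 252). It also had the highest Grik2 (2081 ± 164 CPM), and the Pax6 and Eya4 subset the lowest (682 ± 242). Grik3 was reversed: 442 ± 54.96 CPM with Pax6 and Eya4 and 173 to 202 in the other 4 subsets. Grik4 was lowest with Col25a1 and Tll1 (52.2 ± 8.56 CPM against 80.4 to 114), while Grik5 had means of 84.7 to 102 CPM in all 5.

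Oligodendrocyte-like nuclei split in opposite directions for Grik1 and Grik2. The Opalin and Il33 subset had 135 ± 31.8 CPM of Grik1 and 2040 ± 120 of Grik2, and the Anln and Hapln2 subset 470 ± 57.5 and 1319 ± 99.5. Neither gene overlapped between the subsets: Grik1 had 80.3 to 167 against 395 to 563 CPM over samples and Grik2 1933 to 2233 against 1209 to 1470. Grik4 (89.8 and 86.8 CPM) and Grik5 (35.5 and 30.4) were close. Astrocyte-like nuclei with Gldc, Grin2c and Rorb had 163 ± 17.8 CPM of Grik1, against 68.9 ± 9.13 with Slc6a11, Itih3 and Lrig1 and 69.2 ± 11.5 with Gfap, Adamts18 and Veph1. Among Slc17a6/7 neurons, those with Ebf2, Ebf3 and Corin had 152 ± 53.4 CPM of Grik1 and 38.7 ± 12.1 of Grik4, and those without a UMI of these genes 481 ± 89.7 and 194 ± 62.7, from 21 or more nuclei per sample.

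**Figure D5:**
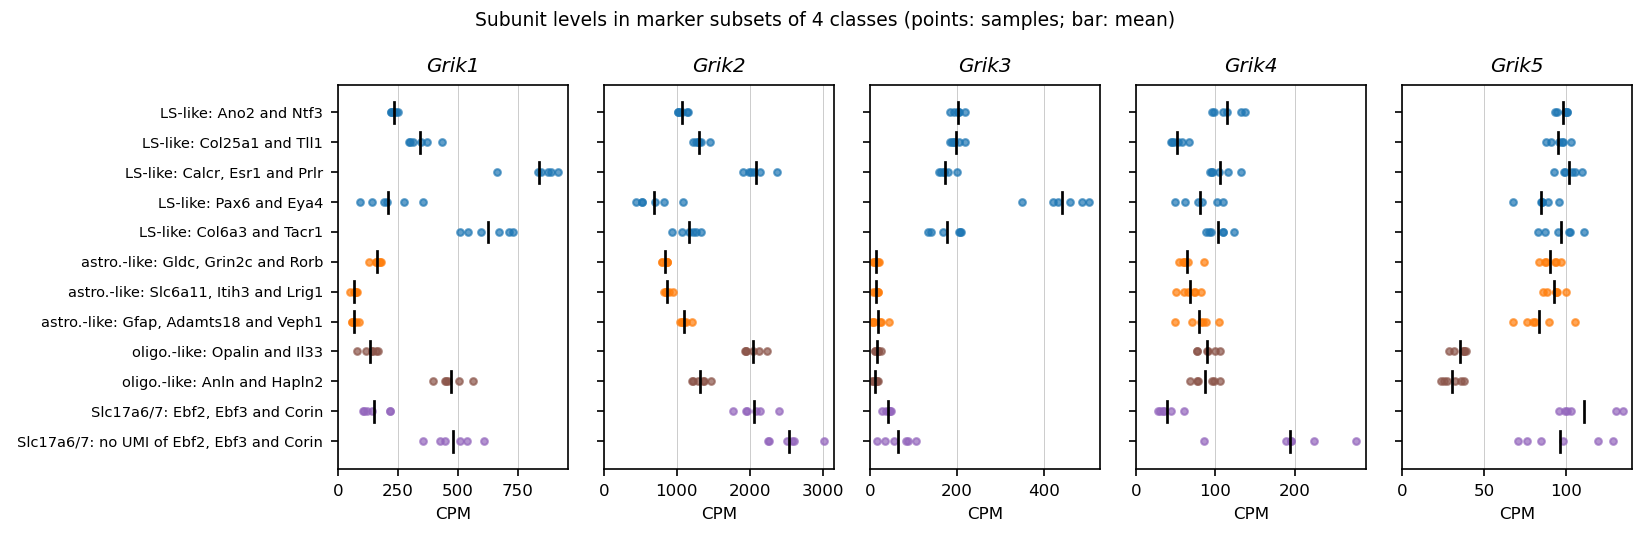
Level of each Grik gene in CPM (x axis, a separate scale for each gene) in marker subsets of lateral septum-like (LS-like), astrocyte-like, oligodendrocyte-like and Slc17a6/7 nuclei (y axis); points are samples and black bars are means. Grik1 is highest in the Calcr, Esr1 and Prlr subset (837 CPM) and differs between the oligodendrocyte subsets (135 and 470 CPM), while Grik5 varies little within each class.

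The genes whose mean log2(CPM + 1) over the 16 classes was most like each member's were ranked among genes with 20 CPM or more in at least 1 class, leaving out members and gate markers. They were B3gat1, Gm48091 and Gm36975 for Grik1 (Pearson r 0.90, 0.90 and 0.87), A330076H08Rik, Dock3 and 2810432F15Rik for Grik2 (0.91, 0.91 and 0.88), Greb1l, Gm47591 and Atcay for Grik3 (0.94, 0.93 and 0.92), Gm32926, Flrt1 and Zmiz1os1 for Grik4 (0.88, 0.87 and 0.87) and Rnft2 and Iglon5 for Grik5 (0.92 and 0.89). Among the members themselves, r over the 16 classes ran from 0.36 between Grik4 and Grik5 to 0.73 between Grik1 and Grik3. The classes share libraries and differ in depth, so these are descriptions.

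In the GENCODE M21 annotation all 5 are protein-coding genes, and 2 other genes of the count table overlap a member, both within Grik2 on its own strand. These, Gm26543 and Gm47018, had 3602 and 1720 UMIs in all against 810982 of Grik2. No label or header used here names the build of the deposited counts, so no coordinates are given.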

How the data were processed

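Nuclei from wild-type mouse septal area (6 samples, 1 group) were profiled with droplet 3' chemistry. The matrices deposited by the authors hold unnormalized UMI counts. Cell Ranger 3.1.0 and STAR are named in the submitters' processing notes, but Cell Ranger 5.0.0 per the file headers. Neither source gives the genome build, the annotation or whether introns were counted, which raises long genes in nuclei. Of the 32285 gene IDs, 32158 matched GENCODE M21.

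Barcodes with 500 or more detected genes were kept (median 5175 to 6863 UMIs per library). Pairs of libraries shared 0.164 to 0.433% of the barcodes of the smaller one. Nuclei were gated on UMIs of marker genes per 10000 UMIs (18 gates, at levels set after seeing the marker sums; 2 listed markers were dropped from the gates after the data were seen), and nuclei passing gates of unrelated classes were left out in place of a doublet caller. Leading genes of each class were checked against its markers. The class of 25 fibroblast-like nuclei had fewer than 10 in every sample and was not analysed here, nor was Klhl17. For each class with 10 or more nuclei in a sample, UMI counts were summed and tested with edgeR 4.0.16 (filterByExpr, TMM, library as block because both sums come from the same library, glmQLFTest) in R 4.3.3, with Benjamini-Hochberg adjustment over all genes tested. DESeq2 1.42.0, RLE scaling, no filter, no block, gates at 0.5 and 2 times their level, other filters, thinning to 2000 UMIs and leaving out each replicate were alternatives. SE is the absolute log2 difference divided by the square root of F. On simulated counts with 200 changed genes, 65% of 2-fold and 99.0% of 4-fold changes were recovered for GABAergic-like against Slc17a6/7 neurons (17516 genes) and 32% and 63% for Chat/Slc5a7 neurons (16902 genes). The simulation gave every gene the same fixed dispersion and no difference between libraries beyond their totals. Its rates do not cover genes that spread more, such as Grik1 in Chat/Slc5a7 neurons. Shares and co-detection were not tested.

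Members, partner and marker lists were chosen with earlier results of these data known. Members, Neto1 and Neto2 are always named. Of the other partners, at most the 2 with the largest change in each direction among those that passed are named in a comparison, and for each member the 3 genes of most like pattern, of which 1 is not reported here.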

Additional observations from a re-analysis of the deposited data

Results flagged for a closer look

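Single samples that stood apart from the others were looked for in 90 gene and class combinations, by the gap to the nearest other sample over the whole range (Dixon's 95% critical value), and 6 were found; chance gives about 1 in 20. Grik1 in Chat/Slc5a7 neurons had 451.8 CPM in replicate 3 (129 UMIs) and 67.8 to 117 in the other 4 samples. Grik1 in microglia-like nuclei had 104.0 CPM in replicate 4 (35 UMIs) and 54.9 to 70.4 in the others. Grik2 in striatal-like nuclei had 3491 CPM in replicate 3 and 2357 to 2728 in the others. Grik2 in Slc17a6/7 neurons had 2656 CPM in replicate 5 and 2015 to 2239 in the others. Grik3 in microglia-like nuclei had 26.8 CPM in replicate 6 from 8 UMIs and 14.3 to 18.9 in the others. Grik4 in dividing progenitor-like nuclei had 44.8 CPM in replicate 6 from 3 UMIs and 0 to 8.65 in the others. The causes were not tested.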

How the results depend on the processing

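Over 630 single-gene values under other settings, 594 kept their direction and side of the threshold, 19 lost the call, 11 gained it and 6 changed sign; the cause was not tested. The sign changes were all in values that had not passed: Grik1 in lateral against medial septum-like nuclei ran from -0.0349 to 0.204 with 1 replicate left out, below 0 without replicate 2, 4 or 6, and gave -0.11 with gates at double the level, and Grik3 in ependymal-like against astrocyte-like nuclei gave -0.0341 with no filter and -0.0487 with thinned nuclei. The count of members called was within 1.5 times the main count in all but 3 cases: 2 in place of 4 for lateral against medial septum-like nuclei with gates at double the level, and 2 and 3 in place of 5 for Chat/Slc5a7 against GABAergic-like neurons with gates at 0.5 of their level (4 samples) and with thinned nuclei. Gates at double the level left too few samples with 10 Chat/Slc5a7 nuclei, so that fit was not run. Thinning to 2000 UMIs lowered the shares of nuclei with a UMI from 81.9 to 56.3% for Grik1 in oligodendrocyte precursor-like, 99.7 to 97.5% for Grik2 in striatal-like, 76.1 to 36.1% for Grik3 in medial septum-like, 84.4 to 51.6% for Grik4 in oligodendrocyte precursor-like nuclei and 67.4 to 21.8% for Grik5 in Slc17a6/7 neurons. It lowered co-detection from 100% to 96.6% for Grik4 in oligodendrocyte precursor-like, 90.9 to 77.3% for Grik4 in ependymal-like, 99.9 to 92.6% for Grik5 in lateral septum-like and 94.9 to 83.6% for Grik5 in astrocyte-like nuclei. The library is a block because both class sums come from 1 library; without the replicate block the call changed only for Grik5 in lateral septum-like against striatal-like nuclei, which then passed (-0.23, adjusted p 0.026). Few UMIs limit the smallest sums: Grik4 had 4 in dividing progenitor-like and 17 in neuroblast-like nuclei over all samples.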
